A study of Bos grunniens with 18 samples.

Results

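The change in the microRNA (miRNA) content of the yak testis between 18 months and 4 years of age is described here over all 1536 miRNA entries of the deposited small RNA table, of which 881 had enough counts to be tested and 655 did not. The libraries came from testes of male yaks (Bos grunniens) castrated at 18 months (Y18M) or 4 years (Y4Y), 3 animals at each age, and 3 further animals castrated at 6 months (Y6M) are given beside them for their levels. The healthy animals, from 1 cooperative, received nothing before sampling that the labels name beyond anaesthesia and surgery, so age is what the groups differ in by label. Each library is of whole testis tissue, washed in buffer and frozen, and so holds all its cell types. A stage label names Y4Y animals as infants, Y6M as adolescents and Y18M as adults, which goes against the ages, and samples were therefore grouped by title. The whole series holds 18 libraries, a small RNA library and a ribosomal RNA-depleted long RNA library under each animal's title. Animals that share a replicate number at different ages are different animals. The table sorts its entries into 3 classes, 558 called existing (names that start with bta), 717 called known (names that end in -x, -y or -z) and 261 listed by a serial number, of which the part after the class word is printed here (m0006-3p).

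A miRNA is a short RNA cut from either arm of a hairpin precursor, the arm nearer the 5′ end giving the 5p form and the other the 3p form. Loaded into an Argonaute protein, it pairs with messenger RNAs mainly through its seed, bases 2 to 8, and lowers their stability or translation, so miRNAs with the same seed share many possible targets. Many miRNAs are made from a common transcript with their neighbours, either as a cluster or from the intron of a host gene. In the testis, miR-34 and miR-449 are known from meiotic and later male germ cells, miR-202 from the gonads in general, and miR-143, miR-145, miR-199 and miR-214 from smooth muscle and other mesenchymal cells of the body.

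Counts assigned to listed miRNAs were 4249724 to 7517361 per library at 18 months and 6182381 to 8380056 at 4 years, with the lowest total in Y18M replicate 1. Levels are given in CPM, counts per 1000000 listed counts with library sizes scaled by TMM. The 18-month animals were not alike. In a principal component analysis of all 9 libraries the first component held 80.6% of the variance, the 4-year libraries lay between -22.28 and -21.73 and the 6-month libraries between 28.94 and 32.49. On the same axis Y18M replicate 1 lay at -20.25, beside the 4-year libraries, replicate 3 at -9.03 and replicate 2 at 2.82. The median SD of log2(CPM + 1) over the tested miRNAs was 0.371 at 18 months against 0.213 at 4 years and 0.207 at 6 months. The labels say nothing of separate batches.

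The sequences below are those on which the comparison turns, as the deposited table lists them, written 5′ to 3′ with the seed in capitals and T in place of U. The first set comes from the hairpins in an intron of GABRE and from the X-linked cluster of miR-424, miR-503, miR-542 and miR-450, whose entries were lower at 4 years, and from miR-31.
bta-miR-224: cAAGTCACtagtggttccgttta
bta-miR-452: tGTTTGCAgaggaaactgagac
miR-452-x: aACTGTTTgcagaggaaactga
bta-miR-31: aGGCAAGAtgctggcatagct
bta-miR-424-5p: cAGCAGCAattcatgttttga
bta-miR-424-3p: cAAAACGTgaggcgctgctat
bta-miR-503-5p: tAGCAGCGggaacagtactg
bta-miR-450b: tTTTGCAAtatgttcctgaata
The second set holds 2 miR-15 and miR-16 family entries with the same seed as miR-424-5p, which did not pass the test.
bta-miR-16b: tAGCAGCAcgtaaatattggc
bta-miR-15b: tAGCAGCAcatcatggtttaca
The third set holds entries higher at 4 years, and 2 entries that share a seed of which 1 passed the test.
bta-miR-4286: aCCCCACTcctggtacc
bta-miR-184: tGGACGGAgaactgataagggt
miR-708-y: cATCTAGActgtgagcttctaga
bta-miR-126-3p: cGTACCGTgagtaataatgcg
miR-6526-z: tACTGTGCcttgaatgggtatg
m0031-3p: tACTGTGCcctgtatgggtag

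Most of the miRNAs called in the reported fit were lower in the older animals. Of the 881 tested, 75 fell and 9 rose from 18 months to 4 years at an adjusted p under 0.05 (edgeR quasi-likelihood test over the 9 small RNA libraries, Benjamini-Hochberg adjustment), which is 9.53% called, 8.51% lower and 1.02% higher. The fall was -1.14 at the median on the log2 scale and ranged from -4.48 to -0.49, and the rises ranged from 0.64 to 2.98. In all 84 the 3 libraries of each age did not overlap, which was also true of 301 of the 881 tested (34.2%). These 301 were more evenly split, with the 4-year libraries above in 135 and below in 166. Of the calls, 58 (6.58% of those tested) were at least 2-fold, 52 lower and 6 higher. The median log2 fold change of all 881 was 0.04, and 52.1% lay above 0. The 84 entries hold 81 distinct sequences and 69 seeds, and joining entries whose sequences overlap exactly by at least 16 bases leaves 75 groups. In bulk tissue fewer cells of a type and less RNA per cell cannot be told apart.

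**Figure D1:**
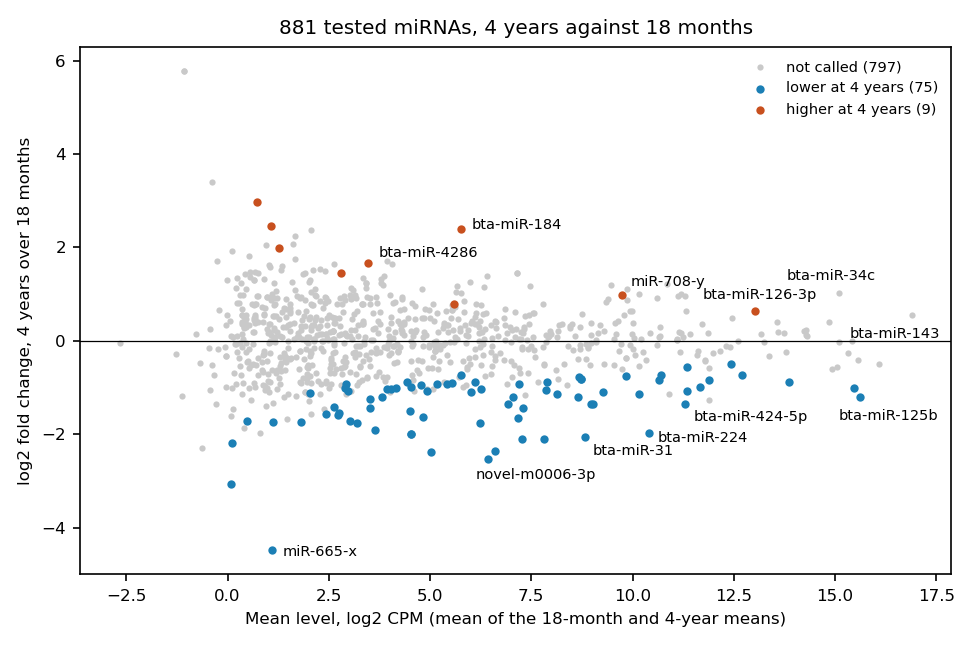
The x axis is the mean level of each of the 881 tested miRNAs on a log2 CPM scale and the y axis the log2 fold change of 4 years over 18 months. Blue points are the 75 called lower, orange points the 9 called higher and grey points the 797 not called. The lower calls run from rare entries such as miR-665-x to abundant ones such as bta-miR-125b.

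How many miRNAs passed depended on single animals and on the model. Without Y18M replicate 1 the count was 286, of which 125 were higher. It was 33 without Y18M replicate 2, 27 without Y18M replicate 3, 33 without Y4Y replicate 1, 12 without Y4Y replicate 2 and 34 without Y4Y replicate 3. DESeq2 called 133 (35 higher, 98 lower) and limma voom with quality weights 326 (135 higher, 191 lower), each including all 84, and an edgeR fit to the 6 compared libraries alone called 12 (1 higher, 11 lower). Under that fit 2 of 6 entries of the GABRE intron, 4 of 16 of the miR-424 cluster, none of 16 at CLCN5 and 1 of 62 at DLK1-DIO3 were lower, with 6, 14, 7 and 30 at an unadjusted p under 0.05. Lower calls made up 89.3% of the reported calls, 73.7% with DESeq2, 58.6% with voom and 56.3% without Y18M replicate 1. All 84 kept their direction in every one of 16 alternative settings in which they were tested. In 10 of them the call itself held in all 16, namely bta-miR-31, bta-miR-424-5p, bta-miR-424-3p, miR-424-x, miR-224-y, miR-452-x, miR-665-x, bta-miR-664b, m0006-3p and bta-miR-4286.

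**Figure D2:**
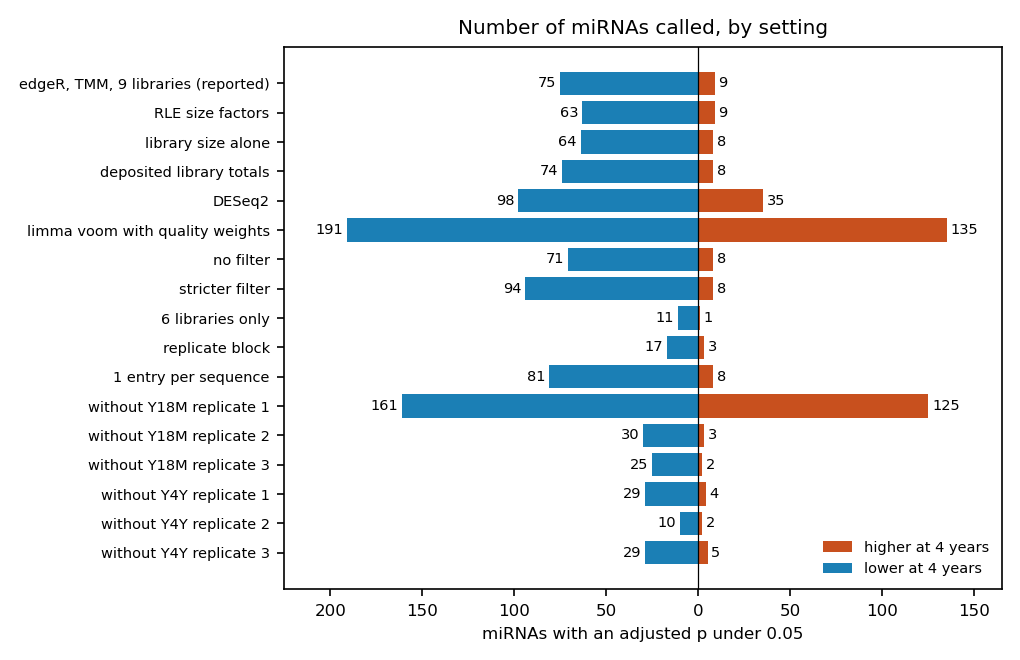
Bars to the left count the miRNAs called lower and bars to the right those called higher at 4 years, for the reported fit and for 16 alternative settings. The count runs from 12 to 326, and lower calls outnumber higher ones in every setting.

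Among the lower calls, levels at 6 months show 3 kinds of course. In 46 of 75 all 6-month libraries lay above all 18-month libraries, in 14 they lay below, and in 15 they overlapped. Y18M replicate 1 was the lowest 18-month library in 69 of the 75, and replicate 2 the highest in 60. The same counts over all tested miRNAs were not made, and the 6-month libraries lay apart from the others on the first component. These courses and orders are therefore not shown to be particular to the lower calls. The 14 entries with their highest level at 18 months come from miR-224, miR-452, miR-31, miR-3431, miR-129 and miR-365-y and the serial-number entry m0006-3p.

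The largest median fall among the loci examined was at GABRE, the gene of a GABA receptor subunit, whose intron holds miR-224 and miR-452. All 6 tested entries fell, against 8.51% of all tested miRNAs, with a median log2 fold change of -2.04. The level of bta-miR-224, the most abundant of them, was 954, 3055 and 2462 CPM in the 3 animals of 18 months and 535.9, 460.6 and 648 CPM at 4 years. Every 18-month animal was above every 4-year animal, with replicate 1 nearest to them, and the 6-month animals were lower still, from 325.5 to 370.5 CPM. The log2 fold change was -1.98 ± 0.36 (SE, n = 3 per age, edgeR adjusted p = 0.0157).

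The other arm, miR-224-y, was at 11.5, 17 and 14.1 CPM at 18 months and 3.81, 4.29 and 4.46 CPM at 4 years (-1.76 ± 0.26, edgeR adjusted p = 0.00673). For miR-452-x the levels were 90.4, 230.9 and 164.9 CPM at 18 months and 32.8, 29.5 and 32.7 CPM at 4 years (-2.36 ± 0.31, edgeR adjusted p = 0.00428). The entry bta-miR-452 starts 3 bases further along the same arm and so has another seed, and it fell alike, from 108.1, 435.1 and 204.3 CPM to 62.8, 55.1 and 57.4 CPM (-2.09 ± 0.42, edgeR adjusted p = 0.0205). Both seeds of this arm were thus lower at 4 years. Of the 6 calls at this locus 2 were left without Y4Y replicate 2, and 4 to 6 without any other single library. In the long RNA libraries GABRE itself was at 6.27, 62.7 and 30.6 CPM at 18 months and 1.46, 0.796 and 1.66 CPM at 4 years, in the order of bta-miR-224 among the 18-month animals. This order was not particular to GABRE, since the Sertoli cell, Leydig cell, matrix and smooth muscle gene sums given below had it too. The spermatid gene sum had the reverse order. GABRE and bta-miR-224 did not run in parallel over all ages. At 6 months GABRE was at 6.13, 5.72 and 8 CPM, above every 4-year animal, whereas bta-miR-224 was below every 4-year animal.

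The X-linked cluster of miR-424, miR-503, miR-542 and miR-450, whose members are known as restraints on the cell cycle in several tissues, fell in 14 of its 18 tested entries, with a median log2 fold change of -0.92 and none above 0, against 8.51% of all tested miRNAs lower. Its most abundant member, bta-miR-450b, was at 6651, 9346 and 8756 CPM at 18 months and 5750, 4558 and 4570 CPM at 4 years, without overlap (-0.73 ± 0.16, edgeR adjusted p = 0.0277). The drop was larger for bta-miR-424-5p, at 2828, 4507 and 3510 CPM at 18 months and 1716, 1188 and 1365 CPM at 4 years (-1.35 ± 0.2, edgeR adjusted p = 0.00673). At 6 months it was higher than at both later ages, from 4964 to 5941 CPM.

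Both arms of the hairpins moved alike. bta-miR-424-3p was at 155.1, 275.2 and 229.1 CPM at 18 months and 81.3, 63.2 and 64.3 CPM at 4 years (-1.66 ± 0.27, edgeR adjusted p = 0.00932). bta-miR-503-5p was at 182.3, 212.9 and 155.6 CPM against 92.1, 67.4 and 79.1 CPM (-1.21 ± 0.2, edgeR adjusted p = 0.0119). bta-miR-450a fell by 0.84 and miR-542-y by 0.83 on the log2 scale. The count of 14 was 8 without Y18M replicate 3, 3 without Y4Y replicate 2 and 8 without Y4Y replicate 3.

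The seed AGCAGCA is read by miR-424 and by the miR-15 and miR-16 family, but the entries did not move together. Of 12 tested entries with this seed 3 fell, bta-miR-424-5p, miR-424-x and miR-322-x. bta-miR-16b was at 1073, 430.5 and 661 CPM at 18 months and 1054, 999.7 and 1132 CPM at 4 years (0.56 ± 0.28, edgeR adjusted p = 0.205). bta-miR-15b was at 822.5, 195.2 and 389.5 CPM against 777.5, 876.4 and 867.3 CPM (0.84 ± 0.4, edgeR adjusted p = 0.197). In both, Y18M replicate 1 was at the 4-year level and replicate 2 was lowest, so the ages overlapped. None of the 14 tested entries listed as miR-15, miR-16, miR-195 and miR-497 passed in edgeR, 3 had an unadjusted p under 0.05, DESeq2 called none, voom called 6 higher and 2 lower, and their median was 0.24. Without Y18M replicate 1 edgeR called 7 higher and 2 lower. The 3 entries with the neighbouring seed AGCAGCG, bta-miR-503-5p, miR-503-x and miR-6519-z, all fell.

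A further X-linked cluster lies in an intron of the chloride transporter gene CLCN5. Its lower entries were bta-miR-660, bta-miR-500, miR-500-y and miR-502-z, the last 2 of identical sequence. They made up 4 of 16 tested, against 8.51% of all tested miRNAs, and the median of the 16 was -0.68. That count was 7 without Y18M replicate 1, 1 without Y4Y replicate 1 and 0 without any other single library. Of the 46 tested miRNAs that lie elsewhere on the human X chromosome 1 fell, miR-361-y, and their median was 0.04, the same as that of all tested miRNAs. Without Y18M replicate 1 they gave 7 higher and 3 lower calls of 47, and none without any other single library. These loci are named from their known places in the human genome, and miRNA coordinates in yak were not analysed here.

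**Figure D3:**
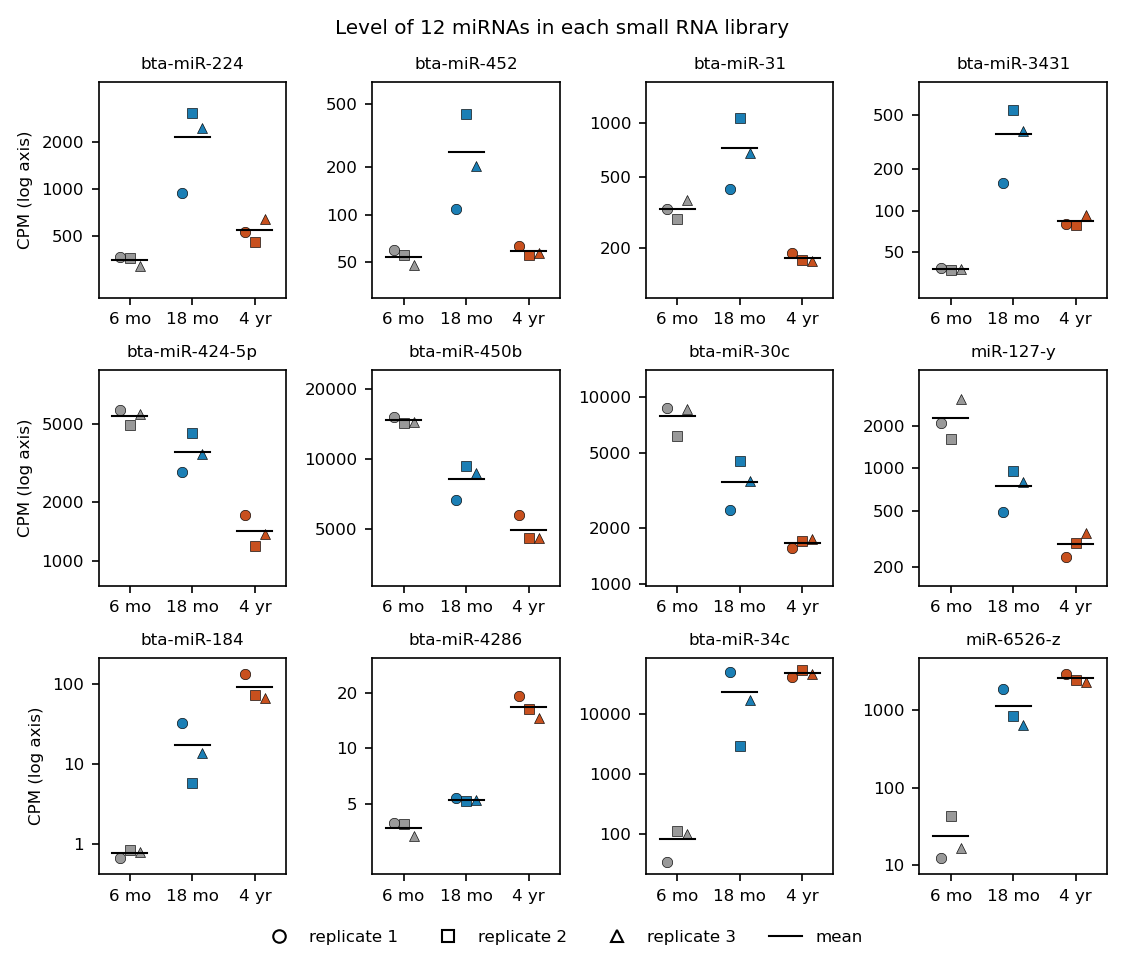
Each panel gives the CPM of 1 miRNA on a log axis in the 9 small RNA libraries, by age, with the mean as a bar and the replicate number as the marker shape. Y18M replicate 1 lies nearest the 4-year libraries for bta-miR-224, bta-miR-31 and bta-miR-424-5p, and bta-miR-34c overlaps between 18 months and 4 years.

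Outside these clusters bta-miR-31, a miRNA studied mostly in epithelia and tumours, also fell, though its longer forms, given below, did not pass. It was at 425.8, 1071 and 684.5 CPM at 18 months and 187.6, 171.1 and 168.5 CPM at 4 years (-2.05 ± 0.29, edgeR adjusted p = 0.00673). The 6-month animals lay between these groups, from 291.3 to 370 CPM, so the level was highest at 18 months and lowest at 4 years. bta-miR-3431 had the same peak, at 160.3, 543.8 and 383.4 CPM at 18 months, 80.1, 79.6 and 93.5 CPM at 4 years and 37.5 to 38.7 CPM at 6 months (-2.1 ± 0.36, edgeR adjusted p = 0.0131).

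bta-miR-129-5p and bta-miR-129, listed with the same sequence and the same counts, were at 21, 54.4 and 35.2 CPM at 18 months and 7.88, 8.04 and 12 CPM at 4 years (-1.99 ± 0.49, edgeR adjusted p = 0.0319). Their 6-month levels were at most 3.06 CPM, and the other arm, bta-miR-129-3p, fell by 1.91 on the log2 scale, so this hairpin too was highest at 18 months. The entry m0006-3p had the smallest p of all. It was at 104.9, 165.8 and 172.8 CPM at 18 months and 19.8, 28.8 and 28.7 CPM at 4 years (-2.52 ± 0.26, edgeR adjusted p = 0.00184). Its listed sequence has 18 bases, gTGGGACGcgtgcgtttt, short for a miRNA.

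bta-miR-365-3p was near its 6-month level at 18 months and dropped later. It was at 94.1, 113.8 and 137.9 CPM at 18 months, 19.1, 44.9 and 38 CPM at 4 years and 99.7 to 136.5 CPM at 6 months (-1.76 ± 0.31, edgeR adjusted p = 0.0149). bta-miR-664b was at 9.73, 13.6 and 14 CPM against 4.32, 3.63 and 3.42 CPM (-1.71 ± 0.26, edgeR adjusted p = 0.00673). Its form with the same start and 1 more base, miR-664-y, was at -0.61 ± 0.26 (edgeR adjusted p = 0.168) and went from 57.8%, 67% and 61.2% of the counts of bta-miR-664b to 129%, 148% and 126%, so the split between these near-identical entries differed between the ages. bta-miR-885 was rare at both ages, with 34 counts in the 3 libraries of 18 months and 5 in those of 4 years.

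The imprinted DLK1-DIO3 locus holds one of the largest miRNA clusters of mammals, expressed from the maternal chromosome and known from embryonic and mesenchymal tissue. Of its 72 tested entries 18 fell (25%), against 8.51% of all tested miRNAs, and none rose. In 70 the log2 fold change was below 0, whereas 52.1% of all tested miRNAs lay above 0, and the median of the locus was -0.86. Summed over the 72, the level was 6359, 14488 and 11540 CPM at 18 months and 4277, 4949 and 5468 CPM at 4 years, against 17033 to 35615 CPM at 6 months. Every 4-year animal was below every 18-month animal, again with Y18M replicate 1 nearest to them.

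The largest fold among the called miRNAs was in miR-665-x, at 3.03, 5.63 and 3.66 CPM at 18 months and 0.127, 0.11 and 0.297 CPM at 4 years, the latter from 4 counts in all (-4.48 ± 0.58, edgeR adjusted p = 0.00428). The other entries of this hairpin did not pass, miR-665-y at 0 ± 0.36 (edgeR adjusted p = 0.996), with a sign that turned with the scaling, and bta-miR-665 at -0.62 ± 0.36 (edgeR adjusted p = 0.277). bta-miR-411a, more abundant, was at 1002, 2081 and 1676 CPM against 648.1, 667.5 and 838.1 CPM (-1.14 ± 0.25, edgeR adjusted p = 0.0286). miR-127-y was at 491.6, 962.7 and 801.5 CPM against 237, 297.9 and 348.6 CPM (-1.35 ± 0.3, edgeR adjusted p = 0.0286). The more abundant entry bta-miR-127, whose seed is the same, was at 2947, 7351 and 5762 CPM against 1947, 2326 and 2455 CPM and did not pass (-1.26 ± 0.49, edgeR adjusted p = 0.136). The count of 18 rests on every animal, being 40 without Y18M replicate 1 and 4 without Y18M replicate 2. It was 2 without Y18M replicate 3, 2 without Y4Y replicate 1, 1 without Y4Y replicate 2 and 4 without Y4Y replicate 3, with medians from -1.04 to -0.65.

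Together the X-linked groups and the DLK1-DIO3 locus gave 43 of the 75 lower calls from 158 tested entries (27.2%) and none of the higher ones. The remaining 723 entries gave 32 lower and 9 higher calls (5.67%), with a median of 0.14. The loci were chosen after values were seen, so these shares only describe where the calls lie and test nothing. Within the X-linked groups the calls were uneven, with 1 lower among the 46 entries from elsewhere on the human X chromosome. Several of the called entries are forms of the same hairpin arm.

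**Figure D4:**
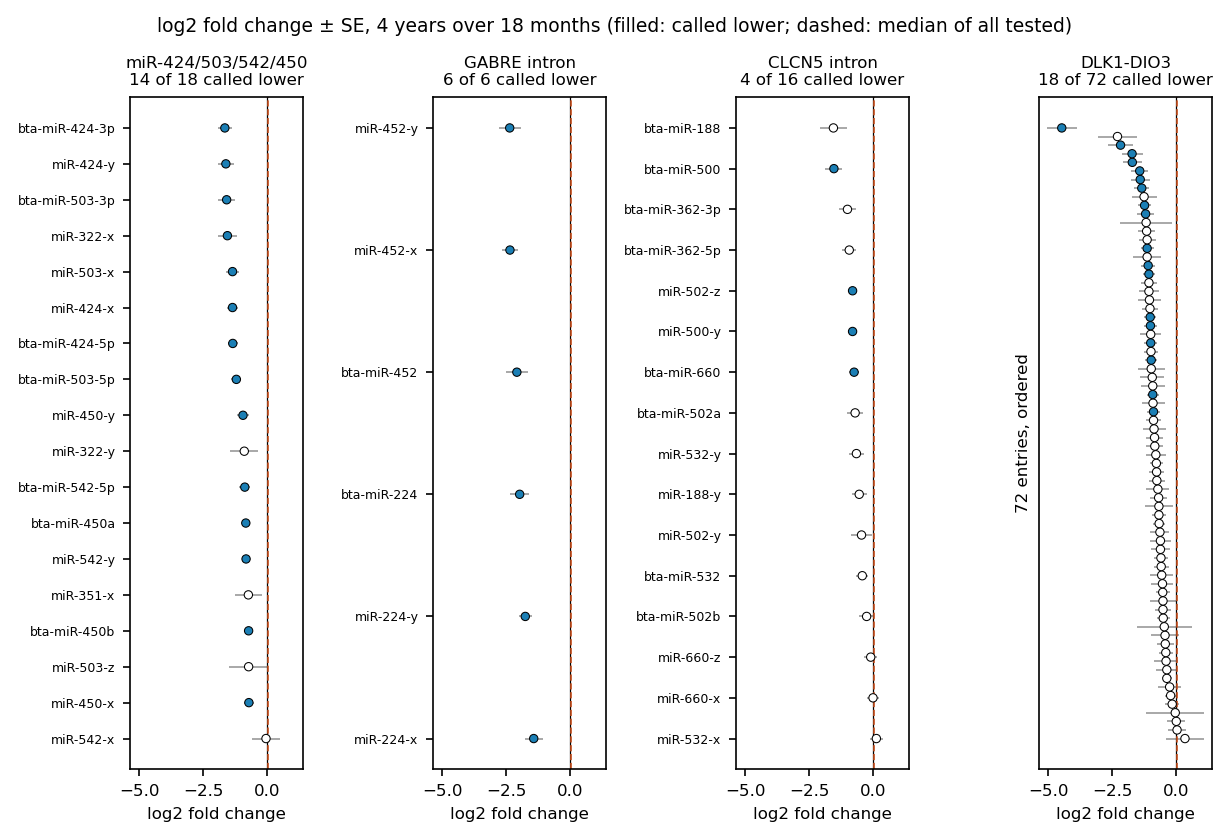
Each point is a tested entry of 1 locus with its log2 fold change of 4 years over 18 months and its SE, filled where it was called lower. All 6 entries of the GABRE intron and 14 of 18 of the miR-424 cluster are filled, against 4 of 16 at CLCN5 and 18 of 72 at DLK1-DIO3, and the dashed line marks the median of all tested miRNAs, 0.04.

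Several of the most abundant miRNAs of the tissue also fell. bta-miR-125b, known as a repressor of differentiation, was at 45408, 89042 and 74705 CPM at 18 months and 31732, 19102 and 39645 CPM at 4 years (-1.21 ± 0.3, edgeR adjusted p = 0.0319), and bta-miR-125a, with the same seed, fell by 0.87 on the log2 scale. The clusters that carry miR-125 also carry let-7 and a miR-99 or miR-100, of which the miR-99 and miR-100 entries had no call. bta-miR-100 was at 32492, 18912 and 24395 CPM at 18 months and 34799, 36084 and 29907 CPM at 4 years (0.41 ± 0.19, edgeR adjusted p = 0.181), and bta-miR-99a-5p overlapped as well (-0.4 ± 0.18, edgeR adjusted p = 0.168). Of the 20 entries listed as miR-10, miR-99, miR-100 and miR-125, 2 fell, and the median was -0.16. Without Y18M replicate 1 the family had 3 higher and 4 lower, and without any other single library but Y4Y replicate 3 it had none.

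bta-let-7f, of the let-7 family that accumulates as cells differentiate, was at 36863, 85304 and 57557 CPM at 18 months and 32437, 30935 and 26281 CPM at 4 years (-1 ± 0.25, edgeR adjusted p = 0.0361). It was the single called member of 15 let-7 and miR-98 entries, of which 14 lay below 0 with a median of -0.33. Summed, the family was at 104826, 162807 and 131735 CPM at 18 months and 91708, 94664 and 84196 CPM at 4 years, without overlap. bta-let-7a-5p was at 42244, 47241 and 44407 CPM against 36430, 39483 and 36121 CPM, without overlap and without passing (-0.26 ± 0.11, edgeR adjusted p = 0.152). The let-7 call was absent when any 1 library but Y18M replicate 1 was left out, and 6 entries fell without that one.

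bta-miR-92a, the abundant member of the miR-17-92 cluster that promotes proliferation, was at 3103, 4963 and 4842 CPM at 18 months and 2103, 2262 and 2192 CPM at 4 years (-0.98 ± 0.18, edgeR adjusted p = 0.0167). Of the 35 entries of this cluster and its paralogues only bta-miR-92a and its longer form miR-92-z fell, 26 lay above 0, and the median was 0.27. Without Y18M replicate 1 the list had 11 higher and 2 lower, it had none without Y4Y replicate 2, and 1 lower without each of the other 4 in turn.

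The miR-30 family, of which some members restrain fibrosis in other organs, divided by member. bta-miR-30c was at 2491, 4527 and 3549 CPM at 18 months and 1568, 1689 and 1733 CPM at 4 years (-1.08 ± 0.22, edgeR adjusted p = 0.0223). bta-miR-30d also fell, by 0.49 on the log2 scale (edgeR adjusted p = 0.0495). bta-miR-30e-5p, with the same seed, was at 13172, 13194 and 12445 CPM against 14266, 15278 and 13921 CPM (0.16 ± 0.13, edgeR adjusted p = 0.449). With 2 of 10 entries called, the family sum was 36715 to 38148 CPM at 18 months and 36104 to 36847 CPM at 4 years, overlapping. Leaving out Y4Y replicate 1 or Y4Y replicate 2 left no miR-30 call, and leaving out Y18M replicate 2, Y18M replicate 3 or Y4Y replicate 3 left 1.

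Of the mesenchymal miR-199 and miR-214 entries 4 of 11 fell, against 8.51% of all tested miRNAs, all 11 lay below 0 and the median was -0.58. bta-miR-199b was at 3155, 3075 and 3052 CPM at 18 months and 1951, 2167 and 2172 CPM at 4 years (-0.56 ± 0.13, edgeR adjusted p = 0.0305), with the 3 animals of 18 months close together. The more abundant bta-miR-199a-5p overlapped (-0.55 ± 0.18, edgeR adjusted p = 0.0875). That count was 8 without Y18M replicate 1, 1 without Y18M replicate 3 and 0 without any of the other 4. In the long RNA of the same animals 7 matrix genes, DCN, LUM, COL1A1, COL1A2, COL3A1, PDGFRA and TCF21, summed to 269.4, 1113 and 575 CPM at 18 months and 226.7 to 272.2 CPM at 4 years. The sum for 9 Sertoli cell genes was 1550, 5084 and 2531 CPM at 18 months and 1156 to 1329 CPM at 4 years, and without CLU, the largest of them, 434.4, 1552 and 837.3 CPM against 351 to 439.1 CPM, overlapping. No gene of either list was at 0 in all libraries of an age.

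The 9 miRNAs that rose were mostly rare. bta-miR-4286 was at 5.41, 5.2 and 5.23 CPM at 18 months and 19.3, 16.3 and 14.7 CPM at 4 years (1.67 ± 0.22, edgeR adjusted p = 0.00428). The animals of each age were close together, but the entry has 17 bases, so a fragment of another RNA with these letters would be counted in it. bta-miR-184, known from germline development in insects and from the lens and cornea of mammals, was at 33.1, 5.77 and 14 CPM at 18 months and 133.7, 74 and 67.2 CPM at 4 years (2.39 ± 0.53, edgeR adjusted p = 0.0286). At 6 months it was under 1 CPM in each library, so it was higher at each later age, and its longer form miR-184-y lay alike without passing (2.38 ± 0.68, edgeR adjusted p = 0.0551).

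miR-708-y, from an intron of the teneurin gene TENM4, was the most abundant riser after bta-miR-126-3p. It was at 554.1, 583 and 581.9 CPM at 18 months and 973.2, 1441 and 998.5 CPM at 4 years (0.99 ± 0.18, edgeR adjusted p = 0.0167). Its 6-month levels were 1495 to 1914 CPM, so 18 months was the lowest of the 3 ages. bta-miR-190b had the same low point, at 1.73, 0.563 and 0.698 CPM at 18 months, 3.3, 2.64 and 5.5 CPM at 4 years and 5.69 to 7.63 CPM at 6 months (1.98 ± 0.47, edgeR adjusted p = 0.0306).

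bta-miR-338 was at 38.3, 35 and 32.8 CPM against 61.4 CPM in each 4-year animal (0.8 ± 0.19, edgeR adjusted p = 0.0307). bta-miR-126-3p, the endothelial miRNA of the EGFL7 intron, was at 7342, 5314 and 6903 CPM at 18 months and 10986, 11426 and 8106 CPM at 4 years (0.64 ± 0.18, edgeR adjusted p = 0.0499). All 4 tested miR-126 entries, length forms of both arms, had their 4-year libraries above their 18-month ones, against 15.3% of all tested miRNAs, and 1 passed, though the call was lost without any 1 library but Y18M replicate 1, where all 4 rose. Endothelial genes in the long RNA (PECAM1, KDR, CDH5, VWF, TEK and EGFL7) summed to 146.1, 186.4 and 234.5 CPM at 18 months and 174.5 to 183.1 CPM at 4 years, overlapping. The 3 other risers, m0080-3p, m0031-3p and m0066-5p, are serial-number entries, the last with 6 counts at 18 months and 68 at 4 years. Next below the threshold were bta-miR-192 (0.91 ± 0.26), bta-miR-126-5p (0.48 ± 0.14) and miR-210-z (0.95 ± 0.27), each with an edgeR adjusted p of 0.0551.

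Germ cell miRNAs were abundant at 4 years but did not pass the test, and the 18-month animals spanned a wide range. bta-miR-34c was at 48884, 2880 and 17370 CPM at 18 months, 40874, 53416 and 46998 CPM at 4 years and 35 to 115.5 CPM at 6 months (1.03 ± 0.76, edgeR adjusted p = 0.391). bta-miR-449a, with the same seed, was at 1518, 155.3 and 596.6 CPM against 1527, 1589 and 1427 CPM (1 ± 0.6, edgeR adjusted p = 0.29). In both miRNAs Y18M replicate 1 was at the 4-year level and replicate 2 far below it. None of 11 miR-34 and miR-449 entries passed in edgeR, 1 had an unadjusted p under 0.05, DESeq2 called none, and voom called 10 higher. All 11 lay above 0, with a median of 1.13, and without Y18M replicate 1 there were 10 higher calls of 12.

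In the long RNA 12 spermatid genes, among them the protamines PRM1 and PRM2 and the transition proteins TNP1 and TNP2, summed to 3156, 216 and 1365 CPM at 18 months, in the same order of animals as bta-miR-34c. The 4-year sums were 4138, 4394 and 3525 CPM and those of 6 months 2.09 to 4.59 CPM. Spermatocyte genes summed to 1234, 747.8 and 1080 CPM at 18 months and 1075 to 1398 CPM at 4 years, and spermatogonial genes to 558.8 to 700 CPM and 520.2 to 631.9 CPM, so both overlapped between the ages. No gene of these lists, nor of the Sertoli and Leydig cell lists, was at 0 in all libraries of either age.

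**Figure D5:**
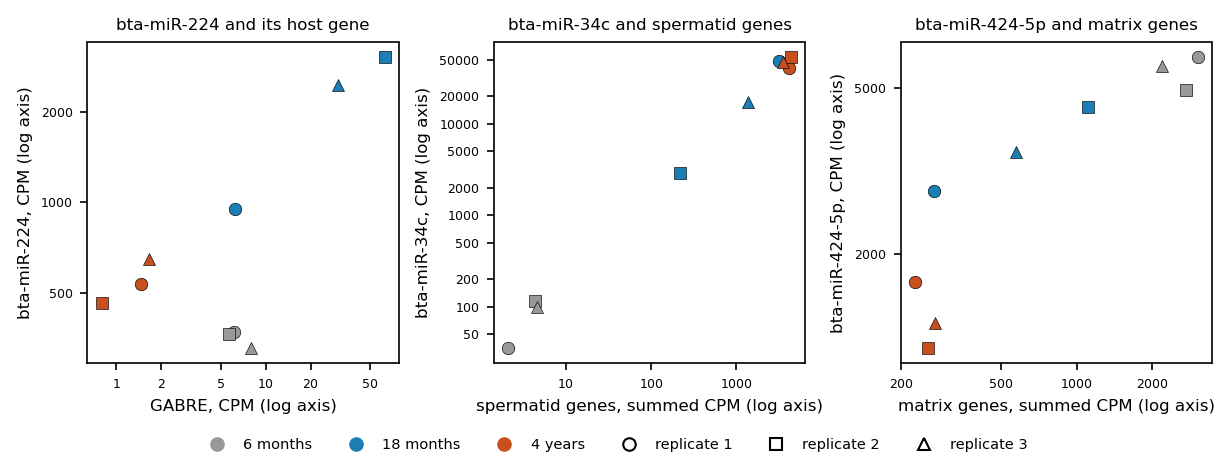
Each point is an animal, with a long RNA value on the x axis and a miRNA value on the y axis, both in CPM on log axes, for bta-miR-224 with its host GABRE, bta-miR-34c with 12 spermatid genes and bta-miR-424-5p with 7 matrix genes. Y18M replicate 2 is highest of the 18-month animals for bta-miR-224 and bta-miR-424-5p and lowest for bta-miR-34c, and the 9 points share their libraries and their ages.

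Of the X-linked miR-506 to miR-514 and miR-888 to miR-892 clusters, which are expressed mainly in testis, only miR-507, miR-508 and miR-513 entries were listed. Summed over these 7 entries, the 18-month animals lay in the same order as for bta-miR-34c. bta-miR-507-3p was at 3659, 1141 and 1255 CPM at 18 months and 3759, 2840 and 2780 CPM at 4 years (0.63 ± 0.39, edgeR adjusted p = 0.311). None of the 7 entries passed in edgeR, 2 had an unadjusted p under 0.05, DESeq2 called 1 higher, voom called 7 higher, the median was 1, and all 7 rose without Y18M replicate 1.

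A group of 7 entries with the seed ACTGTGC, miR-6526-z and 6 serial-number ones, had every 4-year library above every 18-month one, against 15.3% of all tested miRNAs. miR-6526-z was at 1865, 855.7 and 652.3 CPM at 18 months, 2981, 2451 and 2357 CPM at 4 years and 12.3 to 43.3 CPM at 6 months (1.21 ± 0.48, edgeR adjusted p = 0.14). m0031-3p, the 1 that passed, was at 4.33, 4.08 and 2.79 CPM against 7.5, 11.6 and 11.9 CPM (1.46 ± 0.33, edgeR adjusted p = 0.0286). The 7 hold 5 distinct sequences, so they share counts in part. By contrast bta-miR-146b, of the list described in spermatogonia, overlapped between the later ages, with 21240, 14851 and 22013 CPM at 18 months and 20163, 20076 and 22355 CPM at 4 years against 148.2 to 165.5 CPM at 6 months (0.11 ± 0.16, edgeR adjusted p = 0.684). Of the 22 entries of that list the 3 that fell are those of miR-224, of which 1 was left without Y4Y replicate 2, while 4 entries were called higher without Y18M replicate 1.

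The gonadal miR-202 had lower values at 4 years in its abundant entries, and 1 of 4 tested entries of that name passed. bta-miR-202 was at 28599, 44294 and 39623 CPM at 18 months and 28462, 20337 and 25563 CPM at 4 years, without overlap and without passing (-0.6 ± 0.19, edgeR adjusted p = 0.0749). The 3p entry miR-202-y passed, at 213.9, 564.9 and 376.7 CPM against 183.5, 163.5 and 177.9 CPM (-1.14 ± 0.29, edgeR adjusted p = 0.0375), but not without any 1 library other than Y18M replicate 1. Entries under other names also hold this arm. miR-282-x, listed with the same sequence as miR-202-y, fell by 1.05 on the log2 scale and was called in 6 of 15 alternative settings. m0009-3p, which starts 3 bases earlier, fell by 1.09 and was called in 12 of 16.

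The most abundant miRNA of the 4-year testis, bta-miR-143, made up 16.5%, 15.7% and 14.3% of listed counts there. It was at 99908, 86775 and 108891 CPM at 18 months and 157512, 144679 and 131754 CPM at 4 years, without overlap and without passing (0.55 ± 0.18, edgeR adjusted p = 0.0875). None of the 7 miR-143 and miR-145 entries passed in edgeR (2 with an unadjusted p under 0.05, 1 called higher by DESeq2 and 1 by voom), and their median was 0.41. Smooth muscle genes in the long RNA summed to 229.3, 1033 and 551.7 CPM at 18 months and 215.3 to 247.7 CPM at 4 years, with 6 of 6 genes detected. bta-miR-26a (-0.49 ± 0.17, edgeR adjusted p = 0.0907), bta-miR-10b (-0.01 ± 0.11, edgeR adjusted p = 0.972) and bta-miR-27b (-0.03 ± 0.14, edgeR adjusted p = 0.927) overlapped between the ages, and the sign of the last 2 turned with the scaling.

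Of the remaining lists, the miR-181 family had 1 of 6 entries lower (bta-miR-181d) and the miR-23, miR-24 and miR-27 clusters 1 of 16 (bta-miR-23b-5p). The miR-181 list had 5 lower without Y18M replicate 1, 1 without Y4Y replicate 1 and none without any of the other 4, and the bta-miR-23b-5p call held without Y18M replicate 1 alone. The miR-29 (7 tested), miR-148 and miR-152 (9) and miR-130, miR-301 and miR-454 (7) families had no call in edgeR, with 1, 0 and 1 entries at an unadjusted p under 0.05 and none by DESeq2. Voom called 1 lower in the last of these and none in the others. The 6 tested miR-200 and miR-141 entries, known from epithelia, had a median of 0.98 and no call in edgeR, 2 with an unadjusted p under 0.05, 2 called higher by DESeq2, and 4 higher and 2 lower by voom. Neural miR-9 and miR-124 had 6 tested, none called in edgeR, 4 with an unadjusted p under 0.05, 2 called higher by DESeq2 and 4 by voom, and a median of 0.72. Without Y18M replicate 1 edgeR called 3 higher in the miR-200 list and 2 in the neural one.

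Lists for cells that the tissue could hold or carry gave no call in edgeR or DESeq2, among 7 leukocyte, 7 striated muscle, 6 erythroid, 1 liver and 1 pluripotency entries tested, of which 2 leukocyte entries had an unadjusted p under 0.05. Voom called 1 leukocyte and 1 striated muscle entry lower, and edgeR 2 leukocyte entries of 8 without Y18M replicate 1. The leukocyte entries had a median of -0.75, and bta-miR-142-5p was at 1428, 4071 and 2337 CPM at 18 months and 1165, 1235 and 1174 CPM at 4 years (-1.13 ± 0.49, edgeR adjusted p = 0.168). The leukocyte genes of the long RNA did not move as 1 list. PTPRC, which marks all leukocytes, was at 7.19, 39 and 17.4 CPM at 18 months and 6.29, 5.4 and 6.71 CPM at 4 years, while CD14 had the 18-month animals in the reverse order, at 97.8, 24.9 and 54.5 CPM against 30.7 to 35 CPM. The 7 genes summed to 105.4 to 144.2 CPM against 49.7 to 55.1 CPM, and without CD14 to 20, 119.4 and 50.9 CPM against 18.6 to 20.1 CPM, overlapping. The liver entry bta-miR-122 was at 3.89, 4.78 and 5.58 CPM against 13.1, 10.9 and 2.82 CPM and was called higher without Y4Y replicate 3. Of the erythrocyte genes HBM and ALAS2 were at 0 at both ages, and of the liver genes TTR. Leydig cell genes summed to 2684 to 7043 CPM at 18 months and 2692 to 4478 CPM at 4 years, overlapping, and most of this was INSL3. Without INSL3 they summed to 388.3, 871.9 and 809.9 CPM against 241.1 to 418.7 CPM, overlapping as well. The liver, epididymis and erythrocyte sums were also each mostly 1 gene's value and give no level of those cells. APOA1 was at 283.4 to 1742 CPM at 18 months and 288.6 to 384.1 CPM at 4 years, EPCAM at 37 to 86.8 CPM and 90.4 to 102.7 CPM, and HEMGN at 83.1, 4.61 and 31.7 CPM and 80.4 to 134.3 CPM, with the 18-month animals in the order of the spermatid genes. The other erythrocyte genes summed to 2.32 CPM or less in every library of the 2 ages. The part of other cell types in the miRNA differences was not tested.

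Host genes could be compared with their miRNAs for 29 genes. None passed in edgeR, where 6 had an unadjusted p under 0.05, DESeq2 called 1, and of all 16742 genes tested 1 passed (0.00597%). In 19 of 29 the host and its most abundant miRNA had the same sign. The host gene GABRE, with -4.67 ± 0.77 (edgeR adjusted p = 0.174), was the one that passed with DESeq2 (adjusted p = 3.05e-08), and without Y18M replicate 1 it was among 10 hosts called by edgeR (adjusted p = 0.00412). The 8 other hosts of called miRNAs did not pass either. With the sign of the called miRNA were COL27A1 (miR-455, -1.1 ± 0.47), CHM (miR-361, -1.06 ± 0.35, without overlap), CLCN5 (-0.13 ± 0.27), CHPF2 (miR-671, -0.12 ± 0.21) and TENM4 (miR-708, 0.43 ± 0.24), with edgeR adjusted p values of 0.225, 0.174, 0.779, 0.712 and 0.299. With the opposite sign were AATK (miR-338, -0.63 ± 0.58), EGFL7 (miR-126, -0.53 ± 0.4) and NFYC (miR-30c, 0.05 ± 0.15), with edgeR adjusted p values of 0.495, 0.41 and 0.832. NFYC had the sign of its most abundant miRNA, bta-miR-30e-5p (0.16), and so counts among the 19. CLCN5 changed sign and EGFL7 was at 0 without Y18M replicate 2, and NFYC changed sign without Y4Y replicate 2. The host gene COL27A1 was at -1.48 (edgeR adjusted p = 0.0162) and the host gene CHM at -1.36 (edgeR adjusted p = 0.00812) without Y18M replicate 1, and without Y18M replicate 2 they were at -0.3 and -0.56 and did not pass.

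Arms of a hairpin mostly moved together. Over 87 pairs with at least 100 counts in both arms, 67 had the same sign, the median gap between their log2 fold changes was 0.29, and in 8 both arms were called. Arms were paired by entry name, without hairpin coordinates. Some hairpins, such as miR-424, therefore enter under both an existing and a known name, and names without a family letter may join arms of different hairpins. The ratio of the arms did not overlap between the ages in 24 pairs (27.6%). The gap was at least 1 in 3 hairpins, miR-18, miR-93 and miR-23b. bta-miR-23b-5p fell by 1.12 while bta-miR-23b-3p was at 0.01 ± 0.16 (edgeR adjusted p = 0.965), and the log2 ratio of 5p to 3p was -8.57, -8.62 and -8.61 at 18 months and -9.92, -9.6 and -9.69 at 4 years. The same 5p arm is also listed as bta-miR-10174-5p, which starts 1 base earlier, has more counts and overlapped between the ages (-0.27 ± 0.26, edgeR adjusted p = 0.524). Its ratio to a 3p entry with nearly the same counts as bta-miR-23b-3p was -7.98, -7.71 and -7.59 against -7.96, -7.94 and -8.16, overlapping, so the difference in arms was seen for 1 start form.

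Entries that start at the same base and differ in their 3′ end did not always move alike, an observation made after the values were seen. The deposited sequences of miR-31 and of the 3p arm of miR-202 show the forms.
bta-miR-31: aGGCAAGAtgctggcatagct
miR-31-x: aGGCAAGAtgctggcatagctga
miR-72-x: aGGCAAGAtgctggcatagctgaa
miR-202-y: aGAGGTGTagggcatgggaa
miR-202-z: aGAGGTGTagggcatgggaaacc
While bta-miR-31 fell by 2.05 on the log2 scale, miR-31-x, 2 bases longer, was at -0.89 ± 0.26 (edgeR adjusted p = 0.0586) and miR-72-x, 3 bases longer, at 0.23 ± 0.48 (edgeR adjusted p = 0.785). Counts of miR-31-x were 8.79%, 6.49% and 7.34% of those of bta-miR-31 at 18 months and 13.7%, 16.3% and 18.5% at 4 years, without overlap. Counts of miR-202-z were 4.95%, 0.846% and 1.3% of those of miR-202-y at 18 months and 5.4%, 9.49% and 10.6% at 4 years. The longer form thus had the larger share at 4 years in both.

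Over all 88 pairs with the same first base and at least 100 counts each, the ratio did not overlap between the ages in 20 (22.7%), 15 with the less abundant entry relatively higher at 4 years and 5 with it lower. In 74 of the 88 the less abundant entry was the longer one, and among these 15 were higher and 3 lower. The miR-424 forms overlapped, miR-424-x being 20.3%, 19.8% and 20.2% of bta-miR-424-5p at 18 months and 19.3%, 18.8% and 21.5% at 4 years. How reads that match several such entries were counted is not given in the sources used here, so the split between near-identical entries is uncertain.

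By class, 42 of 388 existing entries tested fell and 5 rose (12.1% called), 31 of 406 known entries fell and 1 rose (7.88%), and 2 of 87 serial-number entries fell and 3 rose (5.75%). The serial-number entries had a median log2 fold change of 0.42 against -0.02 for existing and 0.03 for known entries. They made up 0.26% to 0.29% of listed counts at 4 years, 0.13% to 0.3% at 18 months and 0.05% to 0.06% at 6 months, and Y18M replicate 1 had the largest share of all.

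The authors' deposited table for these ages lists 176 miRNAs with a p-value of at most 0.0496 and at least a 2-fold difference, 74 lower and 102 higher at 4 years, of which 57 have a deposited FDR under 0.05. It shares 51 miRNAs with the 84 called here, which is 29% of the authors' deposited table and 60.7% of the calls here, all 51 in the same direction. Of the 176 only 130 were tested here, so the others could not be called. Of the 57 in the authors' deposited table with an FDR under 0.05, 42 were called here. Of all calls here 26 were under 2-fold, and 8 of at least 2-fold were absent from the authors' deposited table.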

How the data were processed

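Small RNA counts per miRNA entry, deposited by the authors for 9 testis libraries (3 per age), were used as they are. The authors' deposited TPM values served to recover the total behind each column. Of this total the listed miRNAs were 82.0% to 82.7% at 4 years, 84.2% to 87.1% at 18 months and 86.7% to 88.0% at 6 months. The 2 compared ages thus did not overlap in this share, and Y18M replicate 1 lay nearest the 4-year libraries. Small RNA library preparation, alignment and counting were not given in the sources used here. Long RNA was measured as estimated counts per gene, deposited by the authors and rounded to whole numbers here. Tools named, without roles, in the submitters' processing notes are HISAT2 2.1.0, StringTie 1.3.4 and fastp 0.18.0, and the build is UMD3.1, a cattle assembly. The authors' deposited table of these 2 ages gives log2 ratios of 18 months over 4 years with p-values and FDR, whose sign was turned here.

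All 9 small RNA libraries entered 1 model (6 residual degrees of freedom), with edgeR 4.0.16 (R 4.3.3), filterByExpr, TMM scaling and the quasi-likelihood test of Y4Y minus Y18M, with Benjamini-Hochberg adjustment over the 881 tested miRNAs and a threshold of 0.05. SE is that of the log2 fold change. Genes were fitted alike. DESeq2 1.42.0, limma 3.58.1 voom with quality weights, RLE, library size alone, deposited totals, no filter, a minimum of 10 counts, 6 libraries only, a replicate block, 1 entry per sequence and each library left out were the alternatives. The long and small RNA libraries of an animal were matched by title. Scripts were tested on simulated data.

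The miRNAs named are, by rule, for each direction the 12 of smallest p among calls of at least 2-fold without overlap, the 10 most abundant, up to 4 of each list with the smallest p and its most abundant member, and the leading call of each class. Others in the text, among them bta-miR-100, bta-miR-15b, bta-miR-449a, bta-miR-450a, bta-miR-450b, bta-miR-452, bta-miR-500, bta-miR-660, bta-miR-885, the miR-129 entries, miR-127-y, miR-542-y, miR-6526-z, miR-361-y and the forms compared by length or start, were chosen after their values were seen. The members and lists were chosen with earlier results of these data known, and the loci, host genes, seeds, length forms and marker sums without their largest gene after values were seen. Loci are from the known human positions, since miRNA coordinates were not analysed here. Each edgeR p-value sets the difference between the ages against the spread between animals, estimated over all 9 libraries. For miRNAs this takes in the 6-month animals, whose median SD was 0.207, against 0.371 at 18 months and 0.213 at 4 years. The result of 1 gene is not reported here.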

Additional observations from a re-analysis of the deposited data

How the results depend on the processing

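Counts of called miRNAs moved with the model and the animals. DESeq2 called 133 with 35 higher, voom 326 with 135 higher, 191 lower and 113 of at least 2-fold without overlap, and the fit to the 6 libraries alone 12 with 1 higher, 11 lower and 12 of at least 2-fold. Leaving out 1 library gave 12 to 286 calls, 2 to 125 higher, 10 to 161 lower and 12 to 192 of at least 2-fold without overlap. Other scalings and filters gave 72 to 102 calls. Library size alone moved the median of all tested miRNAs from 0.04 to 0.15. The cause of these differences was not tested.

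With the replicate number as a block 20 miRNAs were called, 3 higher, 17 lower and 18 of at least 2-fold, among them 3 of the GABRE intron, 4 of the miR-424 cluster and 2 of DLK1-DIO3. Same-numbered libraries deviated together with correlations of 0.05, -0.09 and 0.14, and the numbers name different animals, so they do not pair the samples.

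Of 1412 values of single miRNAs and host genes under the alternatives, 1078 kept direction and call, 245 lost the call, 56 gained it and 33 changed sign. bta-miR-10b was 0.05 with RLE, 0.1 with library size alone, 0.04 with deposited totals and 0.05 with DESeq2, bta-miR-27b 0.03, 0.09, 0.04 and 0.03, and miR-665-y 0.05, 0.11, 0.06 and 0.05, besides 0.0 with 6 libraries and 0.01 with 1 entry per sequence. bta-miR-23b-3p was -0.01 without a filter and bta-miR-146b -0.02 with voom. With 1 library left out, the range was -0.09 to 0.04 for bta-miR-10b, -0.12 to 0.04 for bta-miR-27b, -0.09 to 0.14 for bta-miR-23b-3p, -0.07 to 0.21 for bta-miR-146b, -0.07 to 0.39 for miR-72-x, -0.5 to 0.25 for miR-665-y, -0.34 to 0.21 for the host gene CLCN5, -0.87 to 0.0 for EGFL7 and -0.01 to 0.15 for NFYC.

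With 4 counts at 4 years for miR-665-x and 5 for bta-miR-885, their folds are imprecise, and 655 listed entries were too rare to test.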

Other observations

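The largest log2 fold change of all tested miRNAs rested on few counts. bta-miR-2285ar and bta-miR-2285bd, listed with the same values, had 0 counts in the 3 libraries of 18 months and 21 in those of 4 years and did not pass (edgeR adjusted p = 0.168).

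Of the tested miRNAs, 387 start with T (U in the RNA), and 36 of them fell and 5 rose (10.6%), 267 start with A (7.12% called), 151 with C (9.93%) and 76 with G (11.8%), all near the 9.53% called among all tested.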
